A study of Mus musculus with 44 samples.

Results

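The collagens were taken as the protein-coding mouse genes whose symbol is Col, a number, the letter a and a number. The table held 44 such genes among 31484 genes, of which 21657 were protein-coding. They were described as 11 fibrillar, 6 basement membrane and 27 other collagens, and 35 of the 44 passed the filter on low counts and were tested.

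RNA-seq had been made from biopsies of the ventral corpus mucosa of the stomach of female BalbC mice at 13 months of age. KO mice lacked the H+/K+ATPase beta subunit (Atp4b), which parietal cells need for acid secretion, and WT mice carried it. Mice received the gastrin receptor antagonist netazepide (NTZ) or its vehicle polyethylene glycol (PEG), injected under the skin for about a year. The labels gave 11 WT/PEG and 9 WT/NTZ libraries, and for the KO mice 13 with PEG and 11 with NTZ. The vehicle was part of the treatment in all of the PEG libraries, and no library came from uninjected mice. The 13 KO/PEG libraries are more than the KO/PEG mice that the study describes. Some may therefore be repeat libraries of a mouse, which the labels do not show, and the SE and p-values below treat all 13 as separate samples. An animal number is shared by a pair of WT/PEG libraries, and another one occurs once in each KO group. The levels below are normalized CPM, the counts of a gene scaled to a common library size, as mean ± SD over libraries. The log2 fold changes and their SE come from edgeR's quasi-likelihood test, and a gene was called at a Benjamini-Hochberg adjusted p under 0.05 over the 14901 genes tested.

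Collagens are secreted or membrane proteins in which 3 chains wind into a triple helix. The helix is built from triplets of residues that start with glycine, so that a collagen coding sequence carries a GGN codon at the start of each triplet. Fibrillar collagens such as types I, III and V form the fibres of the lamina propria and submucosa, and in the stomach wall they are made mainly by fibroblasts and smooth muscle. Type IV collagen forms the network of basement membranes under epithelium and around vessels and muscle, and its chains are encoded in head-to-head gene pairs. The other types include the beaded filaments of type VI, the anchoring fibrils of type VII, and the multiplexins XV and XVIII, which are proteoglycans of basement membrane zones. In bulk tissue, fewer cells that make a collagen and less RNA per cell cannot be told apart.

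The sequences below show the repeat and how it differs between a fibrillar and a network collagen, with GGN codons in capitals. The first is the start of the longest uninterrupted run of Col1a1 (codons 168 to 197 of its coding sequence), and the second spans the end of the longest run of Col4a3 (codons 145 to 174), both from the GENCODE transcripts of GRCm38.
Col1a1: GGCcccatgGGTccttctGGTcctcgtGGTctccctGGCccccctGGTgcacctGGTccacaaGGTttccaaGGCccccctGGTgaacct
Col4a3: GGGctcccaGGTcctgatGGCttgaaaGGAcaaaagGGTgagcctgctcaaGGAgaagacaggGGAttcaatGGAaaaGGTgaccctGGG
In the longest complete coding sequence, the longest run held 338 triplets in Col1a1 and 344 in Col3a1. The longest run was 39 triplets in Col4a3, 45 in Col4a4 and 40 in Col4a1, where 24, 27 and 22 runs of at least 5 triplets followed each other. Most of the coding sequence of Col6a3 lay outside such runs, which held 12.4% of its codons.

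Before the collagens, the libraries were compared with their labels. Atp4b was at 3923 ± 713 CPM in WT/PEG and 3613 ± 819 CPM in WT/NTZ, against 6.84 ± 3.86 CPM in KO/PEG and 12.6 ± 11.6 CPM in KO/NTZ, and the WT and KO libraries did not overlap. Library totals ran from 6065084 to 21945124 estimated counts, and collagens made up 0.0652% to 0.182% of the counts of a library. The markers of gastric epithelium summed to 178238 ± 35321 CPM in WT/PEG and 37596 ± 18114 CPM in KO/PEG. The list did not move as a whole, since 6 of its 10 genes were called higher in KO/PEG (Epcam, Krt8, Krt18, Cldn18, Tff2 and Gkn3) and 3 lower (Atp4a, Atp4b and Pgc), with a median log2 fold change of 0.84. A slope of log2 CPM on log2 transcript length was computed over all tested genes in each library, since collagen transcripts are long. This slope ran from 0.173 to 0.401 in WT/PEG, 0.128 to 0.319 in WT/NTZ, against -0.323 to 0.216 in KO/PEG and -0.285 to -0.0181 in KO/NTZ. All but 1 of the KO libraries were below every WT library in that slope, so that it cannot be told apart from genotype in most of them.

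In WT/PEG, per transcript length, Col3a1 had the highest level of the family, with 89.4 ± 25.9 TPM, the analogous scale per transcript length. Col1a2 followed at 33.8 ± 8.30 TPM. Col6a2, Col4a1, Col6a1, Col15a1, Col1a1 and Col4a2 came next with means between 22.9 and 15.4 TPM, and neighbours in that order differed by less than 1 SD. The 9 genes left out of the test were the fibrillar Col2a1 and Col24a1, the basement membrane chain Col4a6, and Col6a6, Col9a1, Col10a1, Col19a1, Col25a1 and Col26a1. Their group means were all under 1 CPM. Col2a1, the chain of type II collagen of cartilage, had 0 counts in 42 of 44 libraries.

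The first comparison asked how collagen RNA differed between KO and WT mice that received the vehicle. KO/PEG versus WT/PEG showed 23 of the 35 tested collagens called, 7 higher and 16 lower. Over all genes tested 74.6% were called, 37.5% higher and 37.2% lower, and of the tested collagens 65.7%. The median log2 fold change was -0.14 over the tested collagens and -0.00 over all genes. The 23 were 1 higher and 4 lower of 9 fibrillar, 0 higher and 3 lower of 5 basement membrane, and 6 higher and 9 lower of 21 other collagens. With that length slope as a covariate in the fit, 16 were called, 12 higher and 4 lower. Shares of all genes called are given only for the fit over all libraries without a covariate. Counts of collagens under other settings, here and below, have no such share beside them and are not set apart from other genes. Values under that covariate are given below for the genes whose call or direction it changed.

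**Figure D1:**
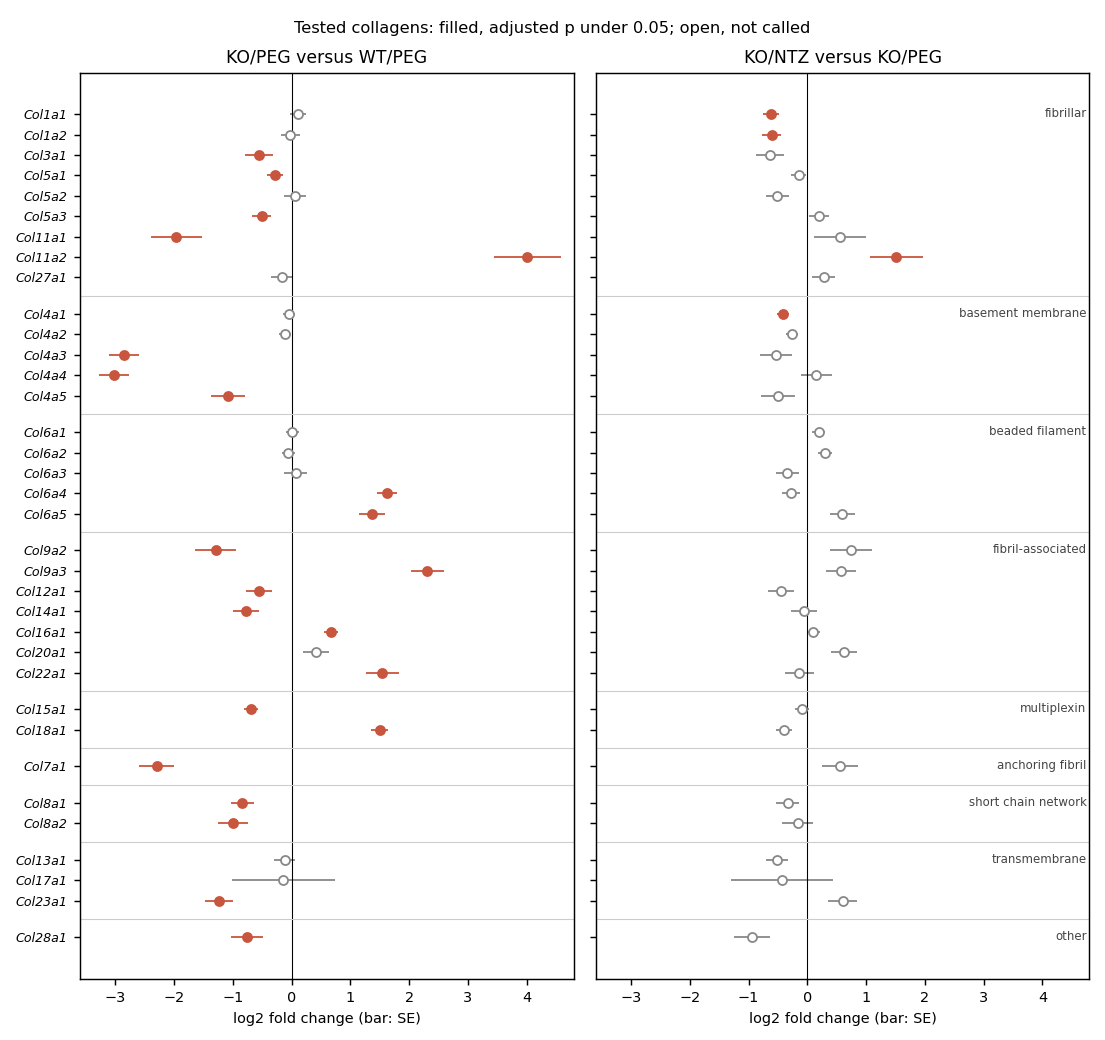
Log2 fold change of each tested collagen (points, with SE as bars) in KO/PEG versus WT/PEG on the left and KO/NTZ versus KO/PEG on the right, grouped by collagen class. Filled points had an adjusted p under 0.05. On the left Col11a2 lies farthest to the right (4.01) and Col4a4 farthest to the left (-3.03), while on the right Col1a1, Col1a2, Col4a1 and Col11a2 are filled.

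The chains of type IV collagen did not move together. Col4a1 (chr8:11198423-11312826, minus strand) and Col4a2 (chr8:11312805-11449287, plus strand) encode the chains found in nearly all basement membranes. Col4a1 was at 125.75 ± 22.6 CPM in WT/PEG and 116 ± 16.2 CPM in WT/NTZ, against 122 ± 18.6 CPM in KO/PEG and 90.8 ± 18.4 CPM in KO/NTZ, and the first comparison gave -0.05 on the log2 scale (SE 0.10, adjusted p = 0.659). Col4a2 was at 86.8 ± 15.1 CPM in WT/PEG and 83.8 ± 12.2 CPM in WT/NTZ, against 80.1 ± 11.9 CPM in KO/PEG and 66.6 ± 13.1 CPM in KO/NTZ, with -0.12 on the log2 scale (SE 0.10, adjusted p = 0.28). For both genes KO/PEG and WT/PEG overlapped over most of their range, and neither was called. They were at 0.31 (adjusted p = 0.173) and 0.15 (adjusted p = 0.546) with the slope covariate, still not called.

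Col4a3 (chr1:82586921-82722059, plus strand) and Col4a4 (chr1:82448423-82586849, minus strand) encode chains of a more restricted network that is best known from the kidney glomerulus. Col4a3 ran from 6.54 to 14.7 CPM with a median of 11 in WT/PEG, from 3.83 to 14.4 CPM with a median of 7.2 in WT/NTZ, then from 0.658 to 3.44 CPM with a median of 1.35 in KO/PEG and from 0.233 to 1.75 CPM with a median of 0.862 in KO/NTZ. Every KO library was below every WT library. KO/PEG versus WT/PEG gave -2.85 on the log2 scale (SE 0.26, adjusted p = 1.75e-12). Col4a4 ran from 5.69 to 10.7 CPM with a median of 8.11 in WT/PEG, from 2.8 to 9.3 CPM with a median of 6.72 in WT/NTZ, then from 0.11 to 1.82 CPM with a median of 1.05 in KO/PEG and from 0.212 to 2.2 CPM with a median of 0.983 in KO/NTZ. It showed the same separation of the genotypes, with -3.03 on the log2 scale (SE 0.26, adjusted p = 2.46e-13). With the slope covariate both were still called lower, at -1.04 (adjusted p = 0.0205) for Col4a3 and -1.36 (adjusted p = 0.00487) for Col4a4. Exons of Col4a3 share 563 bases with C430014B12Rik on the opposite strand, and the strand setting of the counting is not stated.

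Col4a5 (chrX:141475385-141689234, plus strand), whose chain joins those of Col4a3 and Col4a4 in that network, was at 26.5 ± 4.57 CPM in WT/PEG and 21.8 ± 5.39 CPM in WT/NTZ, against 12.4 ± 7.24 CPM in KO/PEG and 8.65 ± 5.66 CPM in KO/NTZ. KO/PEG versus WT/PEG gave -1.09 on the log2 scale (SE 0.28, adjusted p = 0.000789), and all 13 KO/PEG libraries were below the WT/PEG median. In the 5 KO/PEG libraries with a length slope below -0.2, a boundary chosen after the slopes were seen, Col4a5 ran from 2.74 to 5.98 CPM. In the other 8 it ran from 10.2 to 20.6 CPM. With the slope as a covariate the log2 fold change of Col4a5 was 1.17 (adjusted p = 0.00592), in the opposite direction, so that the direction of Col4a5 depends on this choice.

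**Figure D2:**
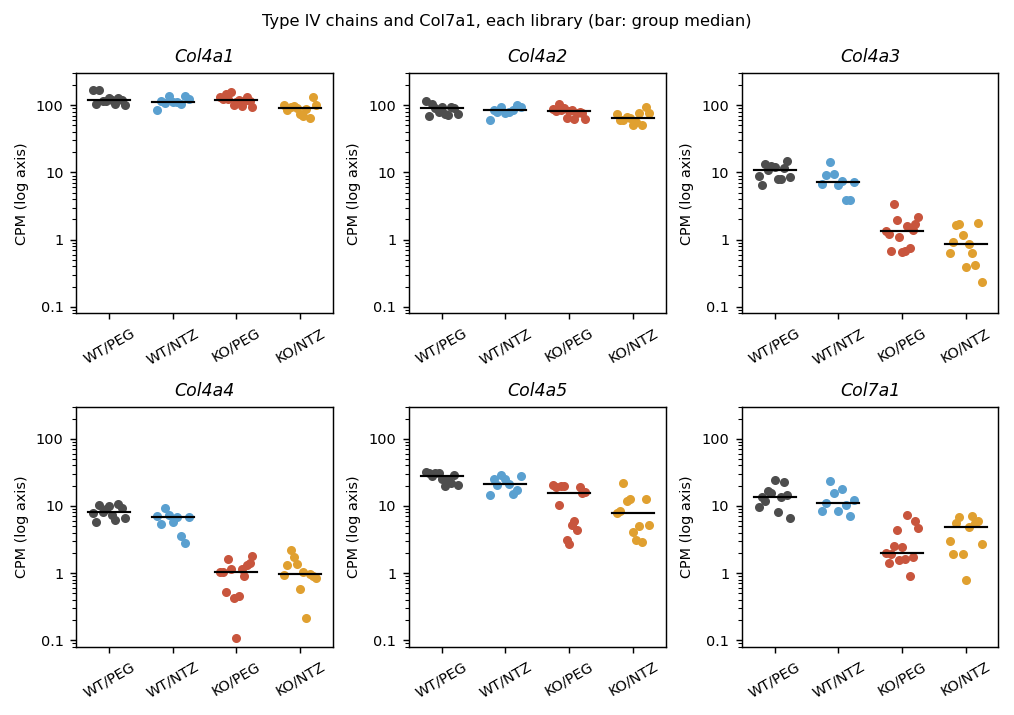
CPM (log axis) of the type IV chains and Col7a1 in each library (points), by group, with a line at the group median. Col4a1 and Col4a2 overlap between the groups, whereas all KO libraries lie below all WT libraries for Col4a3 and Col4a4.

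The promoters of these pairs are printed because the genes of a pair lie head to head, and their part in the levels was not tested. The windows hold 250 bases before and 50 after the start in RefSeq (GRCm38.p6). Capitals mark the GC box (GGGCGG), the CCAAT box (its letters are its name) and the TATA box (TATAAA) on either strand, which were found in 35.7%, 37.4% and 13.6% of 32851 such windows. Windows of 35 of the 44 collagens were matched by symbol, and Col4a3 was not among them. The Col4a1 and Col4a2 windows overlap by 78 bases, and the GENCODE genes overlap by 22 exon bases. The start of Col4a3 lies 72 bases from that of Col4a4, within the Col4a4 window.
Col4a1 (chr8:11312777-11313076, minus strand): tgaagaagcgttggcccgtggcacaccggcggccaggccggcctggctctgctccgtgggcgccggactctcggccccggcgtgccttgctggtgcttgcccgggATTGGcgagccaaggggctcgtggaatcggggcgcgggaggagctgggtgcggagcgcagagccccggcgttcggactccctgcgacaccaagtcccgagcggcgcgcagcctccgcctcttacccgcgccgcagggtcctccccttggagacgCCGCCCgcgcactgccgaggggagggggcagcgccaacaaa
Col4a2 (chr8:11312555-11312854, plus strand): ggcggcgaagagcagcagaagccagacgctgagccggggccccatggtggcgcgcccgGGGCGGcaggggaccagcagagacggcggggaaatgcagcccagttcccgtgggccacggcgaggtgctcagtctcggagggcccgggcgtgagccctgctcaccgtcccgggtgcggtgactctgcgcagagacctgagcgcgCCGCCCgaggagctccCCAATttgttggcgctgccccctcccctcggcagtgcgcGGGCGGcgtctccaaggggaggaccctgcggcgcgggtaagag
Col4a4 (chr1:82586800-82587099, minus strand): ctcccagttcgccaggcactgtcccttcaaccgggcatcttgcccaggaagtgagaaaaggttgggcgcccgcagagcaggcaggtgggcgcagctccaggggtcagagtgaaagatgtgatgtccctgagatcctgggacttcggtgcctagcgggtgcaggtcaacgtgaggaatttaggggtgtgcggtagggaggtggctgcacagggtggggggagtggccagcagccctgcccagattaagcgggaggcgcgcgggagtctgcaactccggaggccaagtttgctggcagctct
The Col4a1 window held 1 GC box and 1 CCAAT box match, the Col4a2 window 3 and 1, and the Col4a4 window none of the 3 motifs.

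Between collagens, 10 relations were tested, the same pairs within WT/PEG (10 animals, the first library of the shared number) and within KO/PEG (13 libraries) on log2(CPM + 0.5), and adjusted over the 10. Col4a1 and Col4a2 were correlated in WT/PEG (r = 0.92, rho = 0.915, permutation p = 0.0004 and 0.00052, adjusted 0.000667 and 0.000743) and in KO/PEG (r = 0.908, rho = 0.896, permutation p = 6e-05 and 0.00018, adjusted 0.000267 and 0.00036). Without the 2 libraries farthest from the median of Col4a1, r was 0.821 and 0.919. Col4a3 and Col4a4 were correlated in WT/PEG (r = 0.927, rho = 0.903, permutation p = 0.00024 and 0.00086, adjusted 0.00052 and 0.00107) and in KO/PEG (r = 0.809, rho = 0.929, permutation p = 0.00026 and 6e-05, adjusted 0.00052 and 0.00015). Without the 2 farthest libraries r was 0.869 and 0.815. Col1a1 and Col1a2 gave r = 0.833 and rho = 0.915 in WT/PEG (permutation p = 0.001 and 0.00044, adjusted 0.00125 and 0.000733) and r = 0.934 and rho = 0.945 in KO/PEG (permutation p = 2e-05 for both, the smallest possible, adjusted 0.0002 and 0.00015), and r was 0.7 and 0.926 without the 2 farthest. Col1a1 and Col3a1 gave r = 0.842 and rho = 0.855 in WT/PEG (permutation p = 0.00266 and 0.0027, adjusted 0.00296 and 0.003) and r = 0.777 and rho = 0.918 in KO/PEG (permutation p = 0.00086 and 4e-05, adjusted 0.00123 and 0.00015), with 0.695 and 0.722 without the 2 farthest. Col1a1 and Col4a1 gave r = 0.894 and rho = 0.896 in KO/PEG (permutation p = 8e-05 and 6e-05, adjusted 0.000267 and 0.00015), and 0.817 without the 2 farthest. In WT/PEG their r was 0.7 and rho 0.539 (permutation p = 0.0348 and 0.116, adjusted 0.0348 and 0.116), and r fell to 0.213 without the 2 farthest libraries, so that this relation rested on them. The points of each relation share their library and its composition. In KO/PEG they also differ in the length slope, for which the relations were not adjusted. Col1a2 ran from 88 to 136.5 CPM in the 5 KO/PEG libraries with a slope below -0.2 and from 132.9 to 244 CPM in the other 8. Col4a1 ran from 97.5 to 121.9 CPM and from 95.5 to 155.8 CPM in the same libraries.

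The chains of type I collagen, Col1a1 (chr11:94936224-94953042) and Col1a2 (chr6:4504814-4541544), were not called in KO/PEG versus WT/PEG without the slope covariate. Col1a1 was at 90.9 ± 12.2 CPM in WT/PEG and 83.1 ± 17.4 CPM in WT/NTZ, against 97.4 ± 31.2 CPM in KO/PEG and 63.2 ± 14 CPM in KO/NTZ, with 0.10 on the log2 scale (SE 0.14, adjusted p = 0.513). Col1a2 was at 157 ± 26.3 CPM in WT/PEG and 140 ± 30.5 CPM in WT/NTZ, against 155 ± 53.4 CPM in KO/PEG and 101 ± 24.9 CPM in KO/NTZ, with -0.02 on the log2 scale (SE 0.15, adjusted p = 0.909). Both were called higher with the slope covariate, Col1a1 at 0.67 (adjusted p = 0.0289) and Col1a2 at 0.74 (adjusted p = 0.0229), so that their calls depend on this choice. The ratio of Col1a1 to Col1a2 per length was 0.516 ± 0.0499 in WT/PEG, 0.532 ± 0.0277 in WT/NTZ, against 0.578 ± 0.0782 in KO/PEG and 0.569 ± 0.0893 in KO/NTZ. That of Col4a1 to Col4a2 was 1.44 ± 0.121 in WT/PEG, 1.36 ± 0.121 in WT/NTZ, against 1.48 ± 0.0988 in KO/PEG and 1.33 ± 0.103 in KO/NTZ. These ratios are given as a description and were not tested.

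Col3a1 (chr1:45311538-45349706), the chain of type III collagen that mixes with type I in loose connective tissue, was lower in KO/PEG. It ran from 197 to 395 CPM with a median of 250.4 in WT/PEG and from 65.4 to 320.4 CPM with a median of 193 in KO/PEG, and 10 of 13 KO/PEG libraries were below the WT/PEG median. The test gave -0.56 on the log2 scale (SE 0.23, adjusted p = 0.0286). In the 5 KO/PEG libraries with a slope below -0.2 Col3a1 ran from 65.4 to 133 CPM, and in the other 8 from 190 to 320.4 CPM. The value was -0.26 (adjusted p = 0.428) with only KO animals numbered below 100, and 0.83 (adjusted p = 0.0768) with the slope covariate. All 11 WT/PEG libraries were numbered 100 or above, so that the former setting compared animals of different number ranges. Among animals numbered 100 or above, Col3a1 was at 273.6 ± 53.7 CPM in WT/PEG and 151.5 ± 59.6 CPM in KO/PEG. Its call was not lost with only those animals.

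Of the other fibrillar genes, a pair of the chains of type V, which regulates fibril width, was lower by small amounts. Col5a1 was at 31.1 ± 6.49 CPM in WT/PEG and 30.6 ± 5.98 CPM in WT/NTZ, against 25.4 ± 6.75 CPM in KO/PEG and 22.9 ± 5.08 CPM in KO/NTZ (log2 fold change in KO/PEG -0.29, adjusted p = 0.0459), and this call was lost under 9 of the 11 other settings. Col5a3 was at 10.2 ± 3.33 CPM in WT/PEG and 8.48 ± 2.31 CPM in WT/NTZ, against 7.17 ± 2.09 CPM in KO/PEG and 8.25 ± 1.85 CPM in KO/NTZ (-0.51, adjusted p = 0.00538). Col5a3 was not called with only KO animals numbered below 100, set against WT/PEG animals numbered 100 or above, at -0.28 (adjusted p = 0.213). Col5a2 (41 ± 8.81 CPM in WT/PEG and 37.5 ± 9.22 CPM in WT/NTZ, against 42.7 ± 17 CPM in KO/PEG and 29.9 ± 10.7 CPM in KO/NTZ) and Col27a1 (14.3 ± 3.66 CPM in WT/PEG and 15.1 ± 6.1 CPM in WT/NTZ, against 12.8 ± 5.49 CPM in KO/PEG and 15.5 ± 5.6 CPM in KO/NTZ) were not called, at 0.06 and -0.16. Col11a1, a chain of the cartilage type XI collagen, was low in all groups at 1.55 ± 0.489 CPM in WT/PEG and 1.23 ± 0.472 CPM in WT/NTZ, against 0.373 ± 0.42 CPM in KO/PEG and 0.514 ± 0.63 CPM in KO/NTZ, and was at -1.96 (adjusted p = 9.8e-05). Col11a1 was at 0.54 with the slope covariate, in the opposite direction and not called (adjusted p = 0.501). Under the same covariate Col5a2 was called higher at 1.11 (adjusted p = 0.00351), while Col5a1 at 0.25 (adjusted p = 0.418), Col5a3 at -0.58 (adjusted p = 0.152) and Col27a1 at 0.31 (adjusted p = 0.496) were not called. With only animals numbered 100 or above Col27a1 was called lower, at -0.38 (adjusted p = 0.0441).

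Col11a2 (chr17:34039437-34066685, plus strand), which encodes another chain of type XI collagen, went the other way and had the largest fold change of the family. It ran from 0.399 to 2.11 CPM with a median of 1.22 in WT/PEG, from 0.64 to 2.74 CPM with a median of 1.36 in WT/NTZ, then from 2.29 to 47.8 CPM with a median of 16.1 in KO/PEG and from 6.76 to 181 CPM with a median of 34.2 in KO/NTZ. All 13 KO/PEG libraries were above all WT/PEG libraries, with 4.01 on the log2 scale (SE 0.57, adjusted p = 6.64e-08). The KO libraries themselves differed widely. In KO/PEG the 5 libraries with a slope below -0.2 ran from 12.8 to 47.8 CPM and the other 8 from 2.29 to 32.7 CPM. With the slope covariate the value was 1.66 and was not called (adjusted p = 0.128). The transcript Col11a2-201 held 95.4% of its counts in KO/PEG. Col2a1, a partner of these chains in cartilage, was not detectable in the KO libraries beyond a single count.

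Col18a1 (chr10:77052178-77166548, minus strand), a multiplexin of basement membranes whose end fragment is endostatin, was higher in KO. It ran from 24.2 to 44.3 CPM with a median of 31.8 in WT/PEG, from 22 to 56.2 CPM with a median of 35.5 in WT/NTZ, then from 46.4 to 141 CPM with a median of 91.2 in KO/PEG and from 55.7 to 107 CPM with a median of 67.2 in KO/NTZ. The WT/PEG and KO/PEG libraries did not overlap, with 1.499 on the log2 scale (SE 0.15, adjusted p = 1.12e-11), and the slope covariate left it at 1.08 (adjusted p = 0.00119). RefSeq has more than 1 promoter for this gene, and most of the counts fell on a transcript from the upstream start. Col18a1-202, which starts at position 77166548 inside the window below, held 90.4% ± 5.30 of the counts of the gene in WT/PEG and 99.2% ± 0.580 in KO/PEG.
Col18a1 upstream (chr10:77166481-77166780, minus strand): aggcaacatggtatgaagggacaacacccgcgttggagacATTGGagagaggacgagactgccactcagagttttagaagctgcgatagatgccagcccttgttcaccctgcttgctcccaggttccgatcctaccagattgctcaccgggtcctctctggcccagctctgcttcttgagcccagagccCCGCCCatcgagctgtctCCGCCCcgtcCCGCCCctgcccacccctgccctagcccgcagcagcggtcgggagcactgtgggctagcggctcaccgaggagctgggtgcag
This window held 3 GC box matches and 1 CCAAT box match, marked as above, and the downstream window of the gene none.

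Col15a1 (chr4:47208161-47313167, plus strand), the related multiplexin, moved in the other direction at 44.7 ± 7.74 CPM in WT/PEG and 39.4 ± 9.43 CPM in WT/NTZ, against 27.8 ± 5.73 CPM in KO/PEG and 26 ± 4.82 CPM in KO/NTZ, with -0.69 on the log2 scale (SE 0.12, adjusted p = 2.73e-06). It stayed called with the slope covariate, at -0.60 (adjusted p = 0.0375). The counts were also divided differently among its transcripts. Col15a1-202, which spans the gene, had a mean of 336 estimated counts in WT/PEG and 114 in KO/PEG, while Col15a1-203, of 1755 bases and ending 5 bases from the 3′ end of the gene, had 165 and 313. The longest open reading frame of the former holds a run of 30 triplets, and that of the latter, of 278 codons, no run above 5.

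The division of counts among transcripts differed between the groups in several collagens. For the 19 tested collagens with at least 2 transcripts that each took 5% of the counts, the share outside the longest of them was compared between WT/PEG and KO/PEG (two-sided permutation test, adjusted over the 19). For Col15a1 that share was 37.7% ± 6.67 in WT/PEG, 46.7% ± 21.8 in WT/NTZ, against 77% ± 15.3 in KO/PEG and 88.4% ± 10.5 in KO/NTZ (permutation p = 1e-05, the smallest possible, adjusted 6.3e-05). For Col12a1 it was 25.9% ± 6.55 in WT/PEG and 55.5% ± 13 in KO/PEG (adjusted permutation p = 6.3e-05), and for Col20a1 8.08% ± 5.35 and 35.2% ± 12.2 (adjusted permutation p = 6.3e-05). For Col16a1 it was 54.9% ± 17.5 and 85.2% ± 11.1 (adjusted permutation p = 0.00057), for Col6a4 24.2% ± 8.93 and 52% ± 19.3 (adjusted permutation p = 0.00072), for Col4a5 72.2% ± 20.4 and 88.6% ± 10.5 (adjusted permutation p = 0.047) and for Col6a3 12.3% ± 3.27 and 15.7% ± 2.83 (adjusted permutation p = 0.043). Col27a1 was the exception among the 8 that passed, with 27.2% ± 6.51 and 16.1% ± 7.45 (adjusted permutation p = 0.0037). In Col12a1, Col15a1, Col20a1 and Col6a4 the shorter transcript begins far inside the gene and ends within 823 bases of its 3′ end. In Col4a5 the share also holds Col4a5-201, of 6285 bases against 6536 for the longest, which starts 25 bases into the gene. In Col16a1 the longest is a nonsense-mediated decay transcript, and the protein-coding Col16a1-210 of 4037 bases lies outside it. A higher share is therefore not always a shift to short transcripts. The share and the length slope moved with genotype together, and their part in the results was not tested.

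The beaded filament genes divided as well. Col6a1, Col6a2 and Col6a3, which encode the chains of the common type VI filaments, were not called in KO/PEG versus WT/PEG. Col6a1 was at 76 ± 14.4 CPM in WT/PEG and 69.9 ± 12.4 CPM in WT/NTZ, against 76.6 ± 15.1 CPM in KO/PEG and 87.9 ± 16.2 CPM in KO/NTZ. Col6a2 was at 81.9 ± 13.6 CPM in WT/PEG and 76.4 ± 16.4 CPM in WT/NTZ, against 78.9 ± 16.4 CPM in KO/PEG and 97.1 ± 20.4 CPM in KO/NTZ. Col6a3 was at 19.5 ± 4.81 CPM in WT/PEG and 20.1 ± 6.21 CPM in WT/NTZ, against 20.4 ± 9.38 CPM in KO/PEG and 16 ± 4.67 CPM in KO/NTZ, and was called at 1.02 (adjusted p = 0.0156) only with the slope covariate. Their fold changes were 0.01, -0.05 and 0.07 on the log2 scale.

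Col6a4 (chr9:105989454-106096783) and Col6a5 (chr9:105856078-105960643), neighbours on the minus strand that encode alternative chains of type VI, were both higher. Col6a4 ran from 3.19 to 7.95 CPM with a median of 6.6 in WT/PEG and from 8.73 to 36.9 CPM with a median of 16.9 in KO/PEG without overlap, with 1.63 on the log2 scale (SE 0.17, adjusted p = 4.1e-11). It was at 5.71 ± 1.31 CPM in WT/NTZ and 15.6 ± 2.51 in KO/NTZ. A processed transcript, Col6a4-203, took 24.2% of its counts in WT/PEG and 52% in KO/PEG, and with protein-coding transcripts only the value was 0.998 (adjusted p = 0.000792). Col6a5 ran from 5.55 to 14.7 CPM with a median of 9.69 in WT/PEG and from 14.4 to 51.9 CPM with a median of 25.4 in KO/PEG, which overlapped slightly, with 1.37 on the log2 scale (SE 0.22, adjusted p = 7.15e-07). Col6a5 was at 11.7 ± 3.8 CPM in WT/NTZ and 41 ± 16 in KO/NTZ. The slope covariate left them at 1.45 (adjusted p = 0.000221) and 1.33 (adjusted p = 0.00893). Exons of Col6a4 share 127 and 162 bases with Gm36993 and Gm47575 on the opposite strand.

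**Figure D3:**
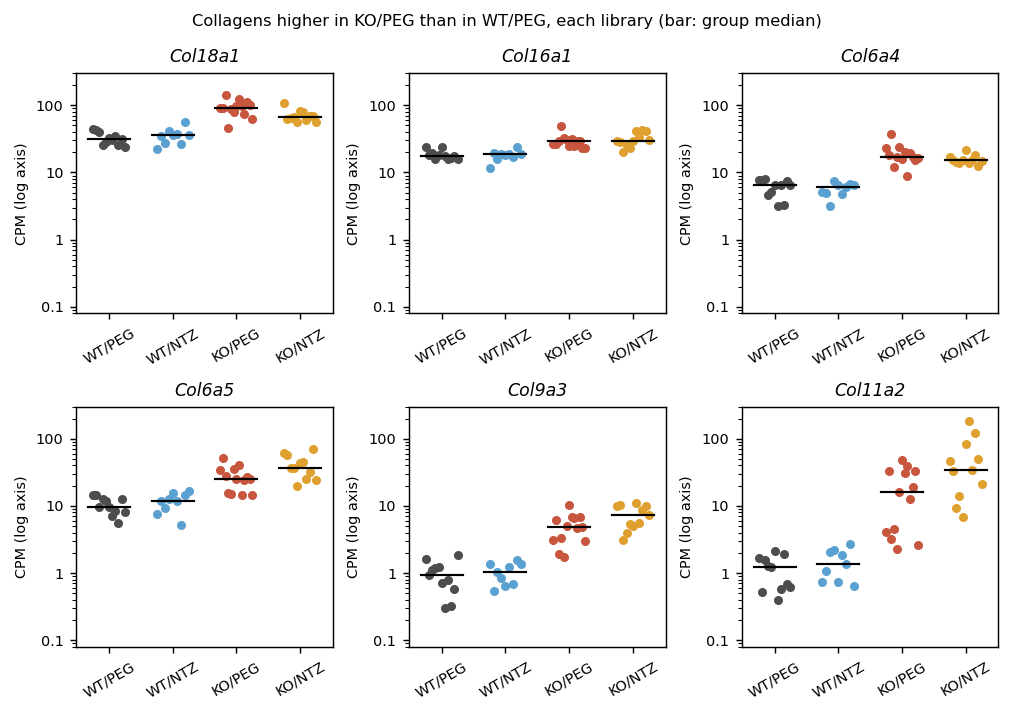
CPM (log axis) of 6 of the 7 collagens called higher in KO/PEG versus WT/PEG, in each library (points), by group, with a line at the group median. WT/PEG and KO/PEG do not overlap for Col18a1, Col6a4 and Col11a2, and Col11a2 runs from 2.29 to 47.8 CPM among the KO/PEG libraries.

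Col7a1 (chr9:108953586-108984875, plus strand), which makes the anchoring fibrils that tie squamous epithelium to its stroma, was lower in KO. It ran from 6.6 to 24.4 CPM with a median of 13.7 in WT/PEG, from 7.18 to 23.5 CPM with a median of 11 in WT/NTZ, then from 0.908 to 7.44 CPM with a median of 2.01 in KO/PEG and from 0.783 to 6.99 CPM with a median of 4.83 in KO/NTZ. All 13 KO/PEG libraries were below the WT/PEG median, with -2.30 on the log2 scale (SE 0.30, adjusted p = 1.02e-08), and at -1.81 (adjusted p = 0.0184) with the slope covariate. Markers of squamous forestomach summed to 0.699 to 428 CPM in WT/PEG, 0.650 to 3519 in WT/NTZ, against 1.64 to 563 in KO/PEG and 20.7 to 609 in KO/NTZ. Their part in the Col7a1 level was not tested. Col17a1, a hemidesmosome collagen of squamous cells, was low and variable at 0.524 ± 0.781 CPM in WT/PEG and 1.92 ± 1.88 CPM in WT/NTZ, against 0.405 ± 0.98 CPM in KO/PEG and 0.302 ± 0.357 CPM in KO/NTZ, and at 0 CPM in the lowest library of each group. It was called neither without the slope covariate (-0.14) nor with it (0.48, adjusted p = 0.845).

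Among the fibril-associated collagens, which decorate the surface of fibrils, 3 were higher and 3 lower of 7 tested. Col9a3 (chr2:180597790-180622189, plus strand), a chain of the cartilage type IX collagen, ran from 0.299 to 1.87 CPM with a median of 0.949 in WT/PEG and from 1.72 to 10.2 CPM with a median of 4.87 in KO/PEG, with 2.31 on the log2 scale (SE 0.28, adjusted p = 3.12e-09). It was at 1.03 ± 0.371 CPM in WT/NTZ and 7.32 ± 2.8 in KO/NTZ. Exons of Col9a3 share 234 bases with Tcfl5 on the opposite strand, and Tcfl5 itself had almost no counts. Col16a1 (chr4:130047840-130099283) was at 18.4 ± 2.83 CPM in WT/PEG and 18.1 ± 3.34 CPM in WT/NTZ, against 29.3 ± 6.65 CPM in KO/PEG and 31.6 ± 7.64 CPM in KO/NTZ, with 0.67 on the log2 scale (SE 0.12, adjusted p = 3.75e-06). Col22a1, a collagen of tissue junctions, was at 0.25 ± 0.139 CPM in WT/PEG and 0.35 ± 0.19 CPM in WT/NTZ, against 0.711 ± 0.215 CPM in KO/PEG and 0.65 ± 0.32 CPM in KO/NTZ (1.54, adjusted p = 5.21e-06). With the slope covariate these 3 genes stayed called, at 1.52, 0.78 and 1.72. Col22a1 reached at most 0.543 CPM in WT/PEG and 0.682 CPM in WT/NTZ, near the floor of 3 counts at 0.137 to 0.501 CPM. It passed the filter on low counts through its higher KO libraries, so that its place among the called genes is tied to that filter.

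Col9a2, another chain of type IX, was lower at 0.941 ± 0.41 CPM in WT/PEG and 0.799 ± 0.373 CPM in WT/NTZ, against 0.377 ± 0.26 CPM in KO/PEG and 0.616 ± 0.413 CPM in KO/NTZ (-1.29, adjusted p = 0.00107). Col12a1 was at 14.9 ± 5.53 CPM in WT/PEG and 11.7 ± 4.31 CPM in WT/NTZ, against 10.1 ± 3.99 CPM in KO/PEG and 7.33 ± 2.99 CPM in KO/NTZ (-0.56, adjusted p = 0.0192) and Col14a1 at 10.1 ± 2.64 CPM in WT/PEG and 8.86 ± 3.64 CPM in WT/NTZ, against 5.94 ± 1.93 CPM in KO/PEG and 5.61 ± 2.82 CPM in KO/NTZ (-0.77, adjusted p = 0.00181). These link fibrils to their surroundings. With only KO animals numbered below 100, set against WT/PEG animals numbered 100 or above, Col12a1 was not called, at -0.35 (adjusted p = 0.257). Under the slope covariate Col12a1 was called higher, at 0.86 (adjusted p = 0.026), and Col9a2 at -0.49 (adjusted p = 0.567) and Col14a1 at -0.32 (adjusted p = 0.575) were not called. Col20a1 was at 5.14 ± 1.2 CPM in WT/PEG and 4.7452 ± 1.46 CPM in WT/NTZ, against 6.95 ± 3.39 CPM in KO/PEG and 10.7 ± 4.58 CPM in KO/NTZ and was not called (0.42, adjusted p = 0.0857), nor with the covariate, at -0.52 (adjusted p = 0.301). It was called higher with only animals numbered 100 or above, at 0.63 (adjusted p = 0.0244).

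The short chain collagens Col8a1 and Col8a2, which form networks around vessels, were both lower. Col8a1 was at 7.17 ± 1.62 CPM in WT/PEG and 6.36 ± 1.01 CPM in WT/NTZ, against 4 ± 1.73 CPM in KO/PEG and 3.11 ± 1.42 CPM in KO/NTZ (-0.84, adjusted p = 0.000169). Col8a2 was at 4.78 ± 0.783 CPM in WT/PEG and 5.27 ± 1.52 CPM in WT/NTZ, against 2.38 ± 1.31 CPM in KO/PEG and 2.05 ± 1.19 CPM in KO/NTZ (-1.0, adjusted p = 0.000773). Among the transmembrane collagens Col23a1 was lower at 7.34 ± 2.8 CPM in WT/PEG and 7.57 ± 3 CPM in WT/NTZ, against 3.09 ± 1.41 CPM in KO/PEG and 4.66 ± 2 CPM in KO/NTZ (-1.24, adjusted p = 1.84e-05), and Col13a1 was at 3.84 ± 1.31 CPM in WT/PEG and 3.59 ± 1.17 CPM in WT/NTZ, against 3.51 ± 1 CPM in KO/PEG and 2.45 ± 0.72 CPM in KO/NTZ (-0.12, not called). Col28a1, a collagen of nerve sheaths, was lower at 1.49 ± 0.486 CPM in WT/PEG and 1.47 ± 0.61 CPM in WT/NTZ, against 0.877 ± 0.401 CPM in KO/PEG and 0.422 ± 0.256 CPM in KO/NTZ (-0.76, adjusted p = 0.0136). With the slope covariate none of these was called, and Col8a1 at 0.40, Col8a2 at 0.054, Col28a1 at 0.53 and Col13a1 at 0.60 were then in the opposite direction, with Col23a1 at -0.26. Col28a1 was also not called with only KO animals numbered below 100, set against WT/PEG animals numbered 100 or above, at -0.47 (adjusted p = 0.239).

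**Figure D4:**
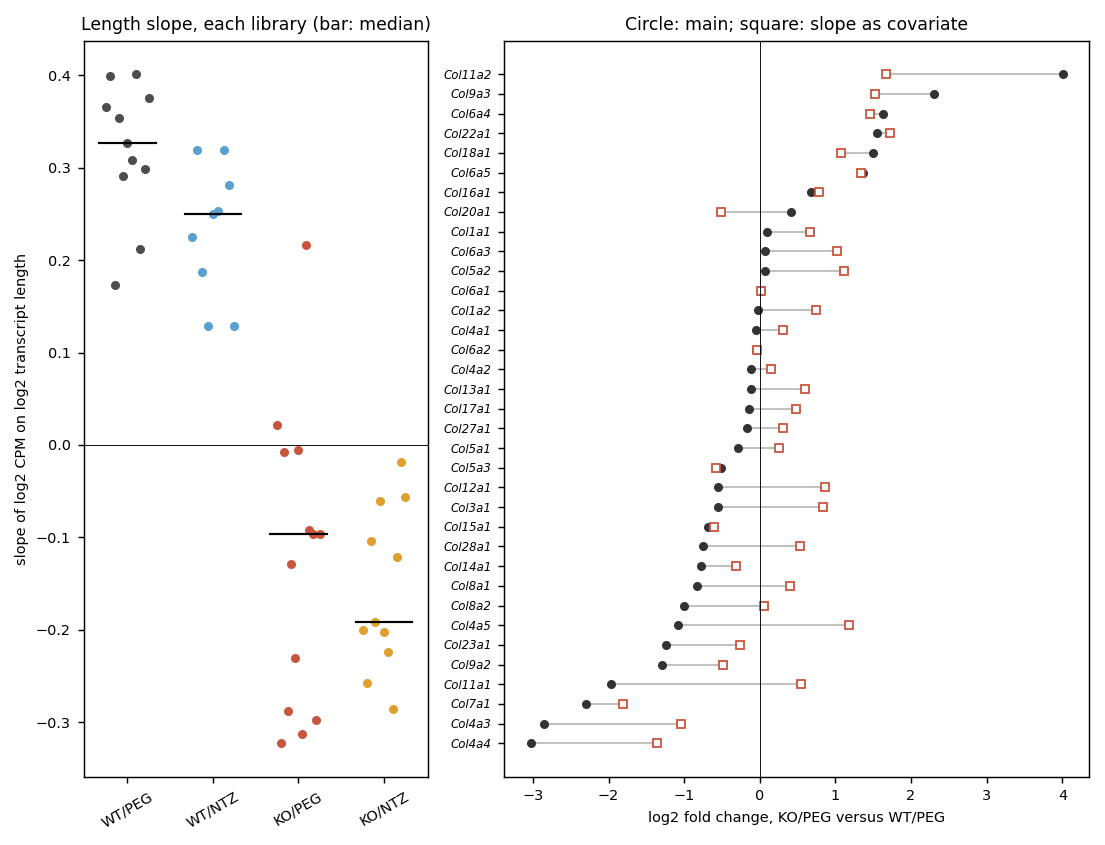
Left, the slope of log2 CPM on log2 transcript length in each library (points), by group, with a line at the median. Right, the log2 fold change of each tested collagen in KO/PEG versus WT/PEG without (circles) and with (squares) that slope as a covariate. All but 1 of the KO libraries lie below all WT libraries, and Col4a5 moves from -1.09 to 1.17.

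Markers of the cells that make collagen, and of other cells of the wall, are given for KO/PEG versus WT/PEG as counts beside the 74.6% of all genes called in it, so that a count near that share says nothing particular about a cell type. Fibroblast markers were lower in 3 of 7 and higher in none, and their summed level ran from 164 to 285 CPM in WT/PEG and from 108 to 199 in KO/PEG. Smooth muscle markers were lower in 7 of 8, with sums from 2604 to 4486 CPM in WT/PEG and from 1104 to 3655 in KO/PEG. Pericyte markers were lower in 4 and higher in 1 of 5, with sums from 242 to 593 CPM and from 116.6 to 277. Endothelial markers were higher in 3 and lower in 3 of 8, with sums from 139 to 253 CPM and from 167 to 379.7. Glia and nerve markers were lower in 5 of 6, with sums from 17.1 to 23.1 CPM and from 5.15 to 11.003. Leukocyte markers were higher in 3 of 5, with sums from 10.7 to 30.2 CPM and from 9.38 to 64.7, and of 2 mesothelium markers tested 1 was higher. No marker of these lists was at 0 in all libraries of either group. Their part in the collagen results was not tested.

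The second comparison asked what NTZ changed in KO mice. KO/NTZ versus KO/PEG showed 4 of 35 collagens called, 1 higher and 3 lower, while 5.56% of all genes were called, 2.97% higher and 2.6% lower. The comparison shares the KO/PEG libraries with the first. The 3 that fell were Col1a1, Col1a2 and Col4a1, and the 1 that rose was Col11a2.

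Col1a1 ran from 58.4 to 166 CPM with a median of 85.3 in KO/PEG and from 40.5 to 89.6 CPM with a median of 64.5 in KO/NTZ, and 10 of 11 libraries of KO/NTZ lay under the median of KO/PEG. The test gave -0.62 on the log2 scale (SE 0.14, adjusted p = 0.00411). Col1a2 ran from 88 to 244 CPM with a median of 142 in KO/PEG and from 63.9 to 137.32 CPM with a median of 102 in KO/NTZ, with -0.61 on the log2 scale (SE 0.16, adjusted p = 0.013). All 11 libraries of KO/NTZ lay under the median of KO/PEG. Col4a1 ran from 95.5 to 156 CPM with a median of 122 in KO/PEG and from 64.8 to 132 CPM with a median of 91.2 in KO/NTZ, with -0.42 on the log2 scale (SE 0.10, adjusted p = 0.00773). The groups overlapped for all of these genes.

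Other collagens with small p-values were lower in the mean but were not called. Col3a1 gave -0.64 on the log2 scale (SE 0.23, adjusted p = 0.0922), with 10 of 11 libraries of KO/NTZ under the median of KO/PEG. DESeq2 called Col3a1 lower, at -0.66 (adjusted p = 0.0481). Col4a2 gave -0.26 on the log2 scale (SE 0.10, adjusted p = 0.099). Col18a1 gave -0.40 on the log2 scale (SE 0.14, adjusted p = 0.0817) and was called at -0.46 (adjusted p = 0.0321) without the KO/PEG library that had the highest mitochondrial share. With the slope covariate Col18a1 was called at -0.43 (adjusted p = 0.0356). Col28a1 gave -0.94 on the log2 scale (SE 0.30, adjusted p = 0.0532), and Col13a1 gave -0.51 on the log2 scale (SE 0.19, adjusted p = 0.094). Col28a1 was called lower with relative log expression size factors (adjusted p = 0.0463) and with DESeq2 (adjusted p = 0.0251). It was also called lower with only KO animals numbered below 100 (adjusted p = 0.0266) and with the slope covariate (adjusted p = 0.0418).

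Col11a2 rose by 1.52 on the log2 scale (SE 0.45, adjusted p = 0.036), and 8 of 11 KO/NTZ libraries were above the KO/PEG median. This call was lost without the filter on low counts (adjusted p = 0.0501), with only the compared groups in the fit (adjusted p = 0.174) and without the KO/PEG library with the highest mitochondrial share (adjusted p = 0.0534). Col6a5 gave 0.60 on the log2 scale (SE 0.21, adjusted p = 0.0793), and Col20a1 gave 0.62 on the log2 scale (SE 0.22, adjusted p = 0.0758). Neither was called in this fit. Col6a5 was called without the libraries of animal 110, at 0.72 (adjusted p = 0.0427). Col20a1 was called with only KO animals numbered below 100, at 0.78 (adjusted p = 0.0351).

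KO/PEG held 6 animals numbered below 100 and 7 numbered 100 or above, and KO/NTZ 10 and 1. All 11 WT/PEG and 4 of 9 WT/NTZ libraries were numbered 100 or above. What these number ranges stand for is not stated. Col1a1 was at 112 ± 36.4 CPM in the lower and 84.4 ± 20.5 CPM in the upper range of KO/PEG, and at 63.2 ± 14.8 CPM in the lower range of KO/NTZ. Col4a1 was at 131 ± 20.2 and 113 ± 13.3 CPM in KO/PEG and at 89.8 ± 19 CPM in the lower range of KO/NTZ. With only KO animals numbered below 100, 11 collagens were called, 3 higher and 8 lower. Col3a1 was then called at -0.92 (adjusted p = 0.0355), Col5a2 at -0.81 (adjusted p = 0.0168), Col4a2 at -0.40 (adjusted p = 0.0395) and Col6a3 at -0.70 (adjusted p = 0.0441). With only KO/PEG and KO/NTZ in the fit 2 collagens were called, and Col1a2 was not (adjusted p = 0.074). With the slope covariate 7 were called, 2 higher and 5 lower.

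**Figure D5:**
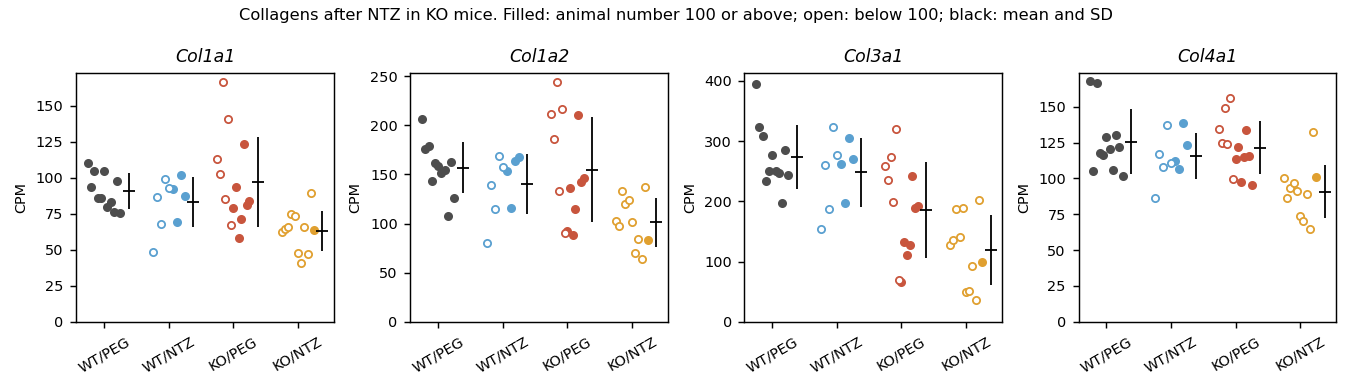
CPM of Col1a1, Col1a2, Col3a1 and Col4a1 in each library (points), by group, filled for animal numbers of 100 or above and open for those below 100, with the group mean and SD in black. The KO/NTZ means lie below the KO/PEG means for all 4, and the highest KO/PEG libraries of Col1a1 are open points.

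The same marker lists are given for KO/NTZ versus KO/PEG, where 5.56% of all genes were called. Of 8 smooth muscle markers, 3 were higher (Acta2, Des and Tagln), and the sums ran from 1104 to 3655 CPM in KO/PEG and from 2207 to 4877 in KO/NTZ. None of 7 fibroblast markers was called, with sums from 108 to 199 and from 102.7 to 291 CPM. Endothelial markers were higher in 1 and lower in 3 of 8, with sums from 167 to 379.7 CPM and from 90.1 to 686 CPM. Of 5 pericyte markers 1 was higher, and of 6 glia and nerve markers 3. Of 2 mesothelium markers tested 1 was lower (Msln), and the sums of that list ran from 3.55 to 18.8 CPM in KO/PEG and from 0.932 to 9.59 CPM in KO/NTZ. Of 4 skeletal muscle markers tested 1 was higher (Ckm), with sums from 5.13 to 21.2 CPM and from 12.5 to 33.8 CPM. In KO/NTZ the group means of Col1a1, Col1a2 and Col4a1 were lower and that of the smooth muscle sum was higher than in KO/PEG. These levels were not related to each other library by library. The part of these cells in the results was not tested.

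In WT mice, no collagen was called after NTZ. WT/NTZ versus WT/PEG showed 0 of 35 called with edgeR and 0 with DESeq2, and 1 with an unadjusted p under 0.05 (Col17a1, 1.95, adjusted p = 0.553). Of all genes 1.03% were called, 1.03% higher and 0.00671% lower. Of the abundant collagens Col1a1 gave -0.13 on the log2 scale (SE 0.15, adjusted p = 0.944), Col3a1 gave -0.14 on the log2 scale (SE 0.25, adjusted p = 0.954) and Col4a1 gave -0.12 on the log2 scale (SE 0.11, adjusted p = 0.931). Of 4 skeletal muscle markers tested 3 were higher in WT/NTZ. Whether the effect of NTZ depended on genotype was tested for each gene. It was called for 0 of 35 collagens with edgeR and 0 with DESeq2, and had an unadjusted p under 0.05 in 5, 2 higher and 3 lower. Over all genes 0.96% were called, 0.242% higher and 0.718% lower. For Col1a1 that difference was -0.49 (SE 0.20, adjusted p = 0.293), for Col1a2 -0.44 (SE 0.23, adjusted p = 0.461) and for Col4a1 -0.30 (SE 0.15, adjusted p = 0.43). Without the slope covariate the effect of NTZ on these genes was therefore not shown to differ between KO and WT mice. With that covariate the difference was called for Col1a1, at -0.57 (adjusted p = 0.0486), and for no other collagen.

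The genotypes were also compared among NTZ-treated mice, which share no library with the first comparison. KO/NTZ versus WT/NTZ showed 30 of 35 collagens called, 10 higher and 20 lower, while 72.4% of all genes were called, 35.6% higher and 36.8% lower. Of these, 21 were called in the same direction in KO/PEG versus WT/PEG, which is 91.3% of the 23 called there and 70% of the 30. None was called in opposite directions. The same overlap was not counted over all genes, so that of the collagens is not set apart from it. Col5a3 and Col9a2 were called only in the PEG groups. The 9 called only in the NTZ groups were Col1a1, Col1a2, Col4a1, Col4a2, Col13a1 and Col17a1, which were lower, and Col6a1, Col6a2 and Col20a1, which were higher. In KO/NTZ versus WT/NTZ 5 of 8 squamous forestomach markers were lower and 0 higher. Of 4 tested skeletal muscle markers 3 were lower and 0 higher, beside the 36.8% of all genes called lower. Their part in the Col17a1 call was not tested.

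In KO/NTZ versus WT/NTZ Col4a3 gave -2.92 on the log2 scale (SE 0.29, adjusted p = 4.62e-11) and Col4a4 -2.43 on the log2 scale (SE 0.28, adjusted p = 1.11e-09). Col11a2 gave 5.14 on the log2 scale (SE 0.64, adjusted p = 5.74e-09). Col1a1 gave -0.39 on the log2 scale (SE 0.15, adjusted p = 0.0189) and Col6a2 0.35 on the log2 scale (SE 0.13, adjusted p = 0.0162). Col27a1, Col5a2 and Col6a3 were called in neither genotype comparison in the fit over all libraries without a covariate. With the slope covariate 7 collagens were called, 5 higher and 2 lower. Col1a1 was then at 0.10, Col1a2 at 0.20 and Col13a1 at 0.13, in the opposite direction and not called, and none of the 9 called only in the NTZ groups stayed called. For Col6a4, counting protein-coding transcripts only gave 0.48 (adjusted p = 0.136) in place of 1.44 (adjusted p = 1.07e-08).

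The genes that modify, process and bind collagen were taken as lists. Their values come from the fit without the slope covariate. That covariate and the other alternatives were examined for the collagens only, so it is not known which of these calls depend on them. Their counts stand beside the 74.6% of all genes called in KO/PEG versus WT/PEG (37.5% higher and 37.2% lower) and the 5.56% called in KO/NTZ versus KO/PEG, and describe the lists without setting them apart from other genes. Of 18 genes of chain modification and folding, 7 were higher and 7 lower in KO/PEG versus WT/PEG. Plod2, a lysyl hydroxylase, was lower at -1.58 (SE 0.16, adjusted p = 3.65e-11), as was P4ha2, a prolyl hydroxylase subunit, at -1.26 (adjusted p = 5.96e-11), and Mia2, which helps export large cargo, at -0.66 (adjusted p = 1.36e-10). Plod1, Plod3, P3h1, Crtap, Ppib, P4hb and Colgalt1 were higher. Serpinh1, the collagen chaperone, was at 122 ± 27.8 CPM in WT/PEG and 126.01 ± 20.8 CPM in WT/NTZ, against 104 ± 22.7 CPM in KO/PEG and 102.99 ± 28.8 CPM in KO/NTZ and was not called (-0.23, adjusted p = 0.116), nor was P4ha1 (0.24, adjusted p = 0.295). In KO/NTZ versus KO/PEG P3h2 was higher at 0.71 (adjusted p = 0.00294) and no other member was called. Colgalt2 was at -0.52 (adjusted p = 0.147).

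Of 11 tested genes of procollagen processing and crosslinking, 3 were higher and 1 lower in KO/PEG. Pcolce, which enhances the removal of the C-terminal propeptide, was at 20.1 ± 2.98 CPM in WT/PEG and 20.6 ± 3.54 CPM in WT/NTZ, against 52.3 ± 12.1 CPM in KO/PEG and 74.3 ± 23.3 CPM in KO/NTZ, with 1.37 on the log2 scale (SE 0.14, adjusted p = 6.24e-11) and no overlap of the groups. Bmp1, the protease it assists, was higher at 0.69 (adjusted p = 4.68e-07), and the crosslinking enzyme Lox at 1.10 (adjusted p = 9.22e-05). Pxdn was lower. With NTZ in KO mice Pcolce rose further, with 0.50 on the log2 scale (SE 0.14, adjusted p = 0.0207), and Adamts14 was at 0.68 (adjusted p = 0.103).

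Of 15 basement membrane partners, 6 were higher and 7 lower in KO/PEG. Lama5, a laminin chain of mature epithelial basement membranes, was at 16.9 ± 3.77 CPM in WT/PEG and 18.3 ± 4.18 CPM in WT/NTZ, against 41.8 ± 10.7 CPM in KO/PEG and 45.2 ± 11.6 CPM in KO/NTZ, with 1.30 on the log2 scale (SE 0.15, adjusted p = 4.19e-10). Lamb3 was higher at 0.73 (adjusted p = 4.29e-06), and Lama4, a laminin chain of vessels, lower at -0.82 (adjusted p = 1.61e-08). With NTZ in KO mice Lama1 fell by 1.13 on the log2 scale (adjusted p = 0.0038), and Nid2 was at -0.72 (adjusted p = 0.082). Of 10 fibril partners, 2 were higher and 5 lower. Fbn1, the main protein of microfibrils, was lower at -1.08 (adjusted p = 1.31e-07), elastin (Eln) at -0.79 (adjusted p = 9.83e-06) and the small proteoglycan Ogn at -1.51 (adjusted p = 2.4e-05). With NTZ in KO mice Prelp was higher at 0.54 (adjusted p = 0.0152), and Fbn2 was at -0.65 (adjusted p = 0.116).

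Of 9 tested collagen receptors, 2 were higher and 4 lower in KO/PEG. Ddr2, a receptor kinase for fibrillar collagen, was lower at -1.16 (adjusted p = 6.68e-09), and so was the integrin chain Itga1 at -1.07 (adjusted p = 1.22e-06). The integrin chain Itga2 was at 0.533 ± 0.297 CPM in WT/PEG and 0.466 ± 0.33 CPM in WT/NTZ, against 2.82 ± 2.03 CPM in KO/PEG and 1.08 ± 0.443 CPM in KO/NTZ, higher in KO/PEG at 2.38 (adjusted p = 5.39e-07) and lower after NTZ in KO mice at -1.36 (adjusted p = 0.0137). Ddr2 was then at 0.32 (adjusted p = 0.176). Of 14 genes of TGF-beta and PDGF signals, 3 were higher and 9 lower. The ligand Tgfb1 was at 5.37 ± 0.924 CPM in WT/PEG and 5.97 ± 1.87 CPM in WT/NTZ, against 13.9 ± 3.74 CPM in KO/PEG and 11.5 ± 2.23 CPM in KO/NTZ, with 1.36 on the log2 scale (SE 0.14, adjusted p = 6.2e-11) and no overlap of the groups. The co-receptor Tgfbr3 was lower at -1.04 (adjusted p = 3.4e-10) and the inhibitor Smad7 at -0.75 (adjusted p = 2.1e-07). The receptor Tgfbr2 was lower in KO/PEG at -0.76 (adjusted p = 0.000803) and lower again after NTZ in KO mice at -0.74 (adjusted p = 0.0237), and Pdgfrb was then at -0.31 (adjusted p = 0.0764). In WT/NTZ versus WT/PEG no gene of these 6 lists was called.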

How the data were processed

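RNA was sequenced with a TruSeq Stranded kit and single reads, and the authors quantified the reads with kallisto 0.42.4 against GRCm38 transcripts. The deposited values were estimated counts per transcript, for 94080 transcripts and 44 libraries, without normalization. The strand setting was not given in the sources used here. The study tested with Sleuth, which was not run here.

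Transcripts were paired with GENCODE M21 genes (GRCm38), and 1708 that could not be paired, with 0.329% to 1.30% of the counts of a library, were left out. Estimated counts were summed per gene and rounded. Genes were kept by filterByExpr (minimum count 10, minimum total count 15), and scaled by TMM. A model with 4 group means and no covariate was fitted in edgeR 4.0.16 (R 4.3.3). Its quasi-likelihood test was adjusted by the Benjamini-Hochberg method over 14901 genes, with a threshold of 0.05. The median log2 fold change of all genes moved by less than 0.1 between TMM and RLE size factors. CPM are TMM-normalized, and TPM were computed from the estimated counts and transcript lengths. The test was checked on simulated counts with independent libraries, in which a small part of the genes changed, equally up and down. In KO/PEG versus WT/PEG 74.6% of genes were called, so that the check does not cover that setting. Total counts of 6065084 to 21945124 put the floor of 3 counts at 0.137 to 0.501 CPM, counting error only. P-values measure the spread between libraries.

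The members and lists were chosen with earlier results of these data known. All 44 genes were accounted for. Full statistics were given for the 10 collagens with the smallest p in KO/PEG versus WT/PEG and in KO/NTZ versus KO/PEG, for those called in WT/NTZ versus WT/PEG or in the difference of effects, and for Col1a1, Col1a2, Col3a1, Col4a1 and Col4a2. From each other list the 3 and 2 smallest p in those comparisons, and Serpinh1, P4ha1, Plod2, Lox and Lama5, were named. Other genes named beside a count were chosen after their values were seen. Libraries were grouped by their labels. Alternatives were RLE size factors, no filter, only the groups compared, DESeq2 1.42.0, the pair of libraries of animal 172 summed, animal 110 left out, animals numbered below or above 100, protein-coding transcripts only, the length slope as a covariate and, chosen after seeing the data, leaving out the KO/PEG library with the highest mitochondrial share. The pair of libraries of animal 172 differed by 18.4 chi-square units per degree of freedom, the 11th lowest of 55 WT/PEG pairs (lowest 5.96), which does not show whether they are 1 animal. The fits and the permutation tests of transcript shares count both as separate samples, so that 11 WT/PEG libraries enter them. The correlations use 1 library of the pair. With the pair summed 23 collagens were called in KO/PEG versus WT/PEG, as without. Promoter windows are from RefSeq (GRCm38.p6). Correlations and shares were tested with 100000 permutations, with Python 3.11.15 and scipy 1.17.1. Figures were drawn with matplotlib 3.10.9.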

Additional observations from a re-analysis of the deposited data

Results flagged for a closer look

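In WT/NTZ, the group of 9 libraries to which a test for single far values applied, each of the 35 tested collagens was examined, and chance alone marks about 1 in 20 such groups. Col27a1, a fibrillar collagen, had 1 library at 28.9 CPM while the other 8 ran from 8.08 to 18.0 CPM, a gap of 0.525 of the range. In the fit over all libraries Col27a1 was called in none of the comparisons between groups, and its mean in WT/NTZ was 15.1 ± 6.1 CPM. It was called lower in KO/PEG versus WT/PEG with only animals numbered 100 or above, at -0.38 (adjusted p = 0.0441).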

How the results depend on the processing

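For KO/PEG versus WT/PEG the count of called collagens (23) was between 16 and 27 over the alternatives. With the length slope as a covariate it was 16, 12 higher and 4 lower. With only animals numbered 100 or above, the range of all WT/PEG libraries, no collagen tested in that fit lost its call. Col20a1 and Col27a1 were called there in addition. For KO/NTZ versus KO/PEG the count (4) was 2 with only the compared groups in the fit, 11 with only KO animals numbered below 100 and 7 with the length slope. Col1a1 and Col4a1 were called lower under all 10 alternatives run for that comparison. Keeping only animals numbered 100 or above left 1 KO/NTZ library, and that setting was not run for the comparisons with KO/NTZ. For KO/NTZ versus WT/NTZ the count (30) was 7 with the length slope and 26 to 32 otherwise. No collagen was called in WT/NTZ versus WT/PEG under any alternative run, and the difference of NTZ effects had 1 (Col1a1) with the length slope and 0 otherwise. Among the collagens called with or without it, the length slope reversed 9 fold changes in KO/PEG versus WT/PEG: Col11a1 to 0.54, Col12a1 to 0.86, Col1a2 to 0.74, Col28a1 to 0.53, Col3a1 to 0.83, Col4a5 to 1.17, Col5a1 to 0.25, Col8a1 to 0.40 and Col8a2 to 0.054. Those of Col13a1, Col17a1, Col20a1, Col27a1, Col4a1 and Col4a2, called in neither fit, also changed sign. In KO/NTZ versus WT/NTZ it likewise reversed Col11a1 to 1.32, Col12a1 to 0.59, Col13a1 to 0.13, Col1a1 to 0.10, Col1a2 to 0.20, Col23a1 to 0.20, Col3a1 to 0.13, Col4a5 to 0.73, Col5a1 to 0.053 and Col8a1 to 0.092, and Col5a2, Col6a3 and Col9a2, called in neither fit, changed sign. The slope nearly separates the genotypes, so that these fits divide a shared difference, and the cause was not tested. No other alternative turned the direction of a called fold change. No paired analysis was possible because the replicate numbers were given in library order and the groups share fewer than 2 animal numbers. Genes under about 1 CPM, such as Col22a1 and Col9a2, rest on few counts in the shallower libraries.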
